A study of Mus musculus with 2 samples.

Results

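Transcripts of the pocket proteins, the MuvB core subunits and their cell-cycle partners were described in mouse embryonic fibroblasts without serum. Such fibroblasts (MEFs) are connective tissue cells cultured from embryos. The set held 10 genes, fixed by name, out of 18193 named genes on the array, and every probe set annotated to exactly 1 of them was used, which gave 25 of 45101 probe sets. The cells were p27delta51 MEFs and wild type MEFs, both raised in 10% fetal bovine serum and then deprived of serum for 72 h, and each genotype was represented by 1 Affymetrix array. The Cdkn1b product p27 binds and inhibits cyclin-dependent kinases (CDKs), and the p27delta51 protein is known to lack the amino-terminal part that binds cyclins and CDKs. The comparison addresses how these transcripts differ between quiescent p27delta51 and quiescent wild type cells. With 1 array per genotype no SD, test or p-value of a difference was possible, so all values describe these 2 arrays, and the allele cannot be told apart from any other difference between the cultures. How many embryos each culture came from is not stated in the sources used here.

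Pocket proteins bind E2F transcription factors and hold back genes needed for DNA replication. In quiescent cells the p130 or p107 pocket protein joins a repressive E2F and the MuvB core to form the DREAM complex, which keeps cell-cycle genes silent. When cells enter the cycle the pocket protein leaves, and the same MuvB core recruits B-MYB and then FOXM1 to switch on genes of late S phase and mitosis. The MuvB core is thus a shared platform, and its partners decide whether it represses or activates.

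Before the members, the arrays themselves were checked. Median signals were 22.2 for p27delta51 and 21.2 for wild type cells, and a control floor, set by the brightest of 27 control probe sets for bacterial RNA, was 14.8 and 11.8 on the same arrays. Cdkn1b was read by 2 probe sets, one at 1016 in p27delta51 and 542 in wild type cells and the other at 1.6 in p27delta51, below the floor, and 62.0 in wild type cells. Neither was placed within or outside the deleted part here. Fibroblast markers were above the floor for 12 of 14 genes in p27delta51 and 13 of 14 in wild type cells, with Vim the brightest at 11278 and 9670, and with Lum at the floor in p27delta51, at 14.8 against 107, and Fap below it on both arrays. Several fibroblast markers differed widely: Dcn read 21.3 in p27delta51 and 2817 in wild type cells and Thy1 18.6 and 279, both only just above the floor in p27delta51, while Col5a1 was 2.35-fold lower and Pdgfra 3.84-fold higher in p27delta51. Endothelial markers were above the floor for 0 of 6 genes in p27delta51 and 2 of 6 in wild type cells (Tek and Kdr, at 28.2 and 15.4), with summed signals of 26.2 and 62.5. Macrophage and leukocyte markers were above the floor for 3 of 7 genes on each array, namely Csf1r at 56.5 and 65.0, Adgre1 at 18.7 and 15.1 and Cd68 at 18.6 and 15.4 in p27delta51 and wild type cells, and the list summed to 112.2 and 111.9. Muscle markers were above the floor for 2 of 6 genes in p27delta51 (Des at 36.8 and Ckm at 20.1) and 1 of 6 in wild type cells (Des at 27.6), with sums of 72.5 and 45.0. The other genes of the endothelial, macrophage and leukocyte, and muscle lists, Pecam1, Cdh5, Ptprc, Tyrobp and Myog among them, were below the floor on both arrays. Epithelial markers were above the floor for 3 of 7 genes in p27delta51 and 5 of 7 in wild type cells, with summed signals of 139 and 281. Krt19 read 13.7 and 176.9 and Krt5 13.9 and 28.6, both below the floor in p27delta51, while Epcam was higher there, at 60.7 and 26.4. The neural list summed to 229.7 and 1771, largely through Map2 at 56.8 and 1378, with Nes at 17.2 and 205.9. Xist gave 876 in p27delta51 and 25.8 in wild type cells and the Y-linked Eif2s3y 6.9 and 424.5, so the cultures also differed in sex-linked transcripts. The part of any of these in the differences below was not tested. The ratio of the 3' to the 5' control probe set, which rises in degraded RNA, was 1.41 and 1.25 for beta-actin and 0.842 and 0.839 for Gapdh in p27delta51 and wild type cells.

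Among the 10 members, the transcripts of p107 (Rbl1), LIN9 and B-MYB (Mybl2) were at least 2-fold higher in p27delta51 cells, and those of p130 (Rbl2) and LIN54 were between 1.5-fold and 2-fold higher. Foxm1 was higher by an amount that depended on the probe set. On their brightest probe sets, Rb1, Lin37, Lin52 and Rbbp4 differed by less than the median SD between probe sets of 1 gene, which was 0.23 on the log2 scale over 5316 genes and is a technical spread. Taking the brightest probe set of each gene, 8 of 10 members were higher in p27delta51. At least 2-fold higher were 3 members, and 0 were lower by as much. Of 11159 genes whose mean signal reached the median of all probe sets (the kept genes), 10.8% were higher by 2-fold or more, 8.77% lower by 2-fold or more and 55.6% higher by any amount. All 10 members passed this brightness limit, Lin52 only just, at a mean of 23.6 against a limit of 22.2. The median log2 difference of p27delta51 minus wild type was 0.56 over the members and 0.079 over all kept genes. In bulk RNA, fewer cells with a transcript and less transcript per cell cannot be told apart.

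Over single probe sets, 16 of the 25 reached the brightness limit and 6 were at or below the floor on both arrays. Of the 16 brighter probe sets 13 were higher in p27delta51, among them 3 each of Foxm1 and Rbbp4 and 2 of Rbl2. The Rbbp4 ones carried no-change calls, and the share higher by any amount over all such probe sets was not computed. Of the 16, 5 were higher by 2-fold or more, against 9.96% of all such probe sets, and 0 were lower by 2-fold, against 8.68%. The authors' deposited table called 10 of the 25 increased or marginally increased, against 14.4% of all probe sets with 1 gene name, and 0 decreased, against 12.2%. Those 10 calls fell on 6 members, Rbl1, Rbl2, Lin9, Lin54, Mybl2 and Foxm1. The other 4 members carried no-change calls throughout.

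**Figure D1:**
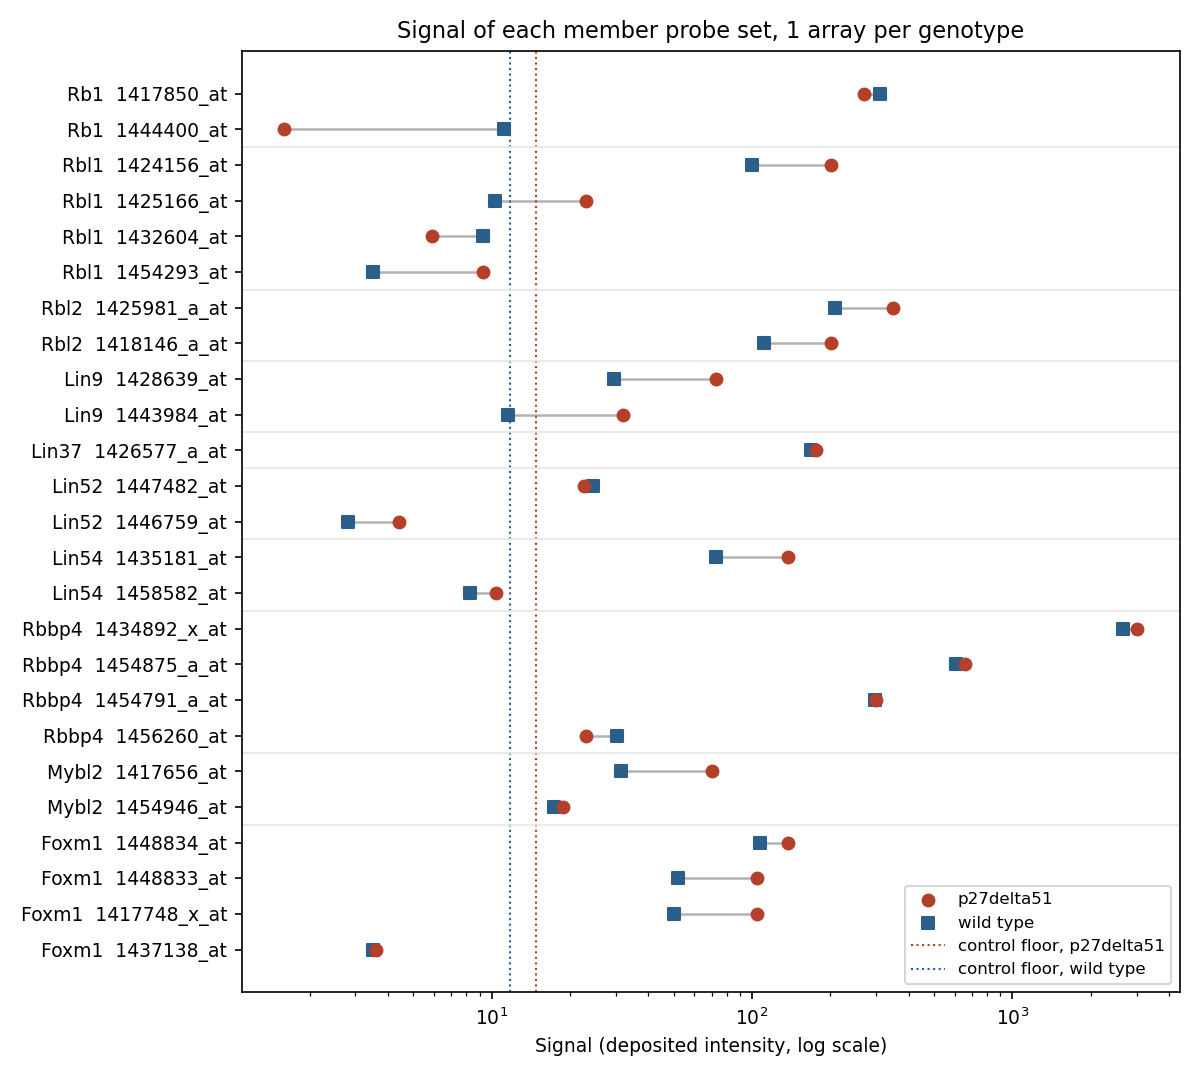
Signal of all 25 probe sets of the 10 members on the p27delta51 array (circles) and the wild type array (squares), on a log scale, with dotted lines at the control floors of 14.8 and 11.8. The p27delta51 signals of the main Rbl1, Rbl2, Lin9, Lin54 and Mybl2 probe sets lie to the right of the wild type signals, those of Lin37 and the brighter Rbbp4 probe sets nearly coincide, and 6 probe sets lie left of both lines.

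Promoter sequences were available for 7 of the 10 members, with 8 windows in all because Lin54 has 2, and are shown because E2F sites and the cell-cycle genes homology region (CHR), the element that LIN54 contacts, are the letters through which these complexes are known to act. The sequences are from RefSeq on the GRCm38.p6 build, each the 250 bases before a transcript start, 5′ to 3′ on the gene's strand, and capitals mark matches on either strand to an E2F core or the CHR. The E2F core was searched as 7 letters, TT, then a pair of letters that are each C or G, then CG, then C or G, and the CHR as TTTGAA. Rbl1 and Mybl2 are shown as the members with a window whose main probe set was at least 2-fold higher, Rbl2 as a higher member with 2 bright probe sets alike and a CHR as its only match, and Rbbp4 as a member with hardly any difference.
Rbl1: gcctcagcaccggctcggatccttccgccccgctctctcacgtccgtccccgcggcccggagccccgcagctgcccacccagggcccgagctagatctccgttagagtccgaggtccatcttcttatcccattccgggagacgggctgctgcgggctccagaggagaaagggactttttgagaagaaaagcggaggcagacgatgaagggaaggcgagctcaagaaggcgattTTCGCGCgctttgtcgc
Mybl2: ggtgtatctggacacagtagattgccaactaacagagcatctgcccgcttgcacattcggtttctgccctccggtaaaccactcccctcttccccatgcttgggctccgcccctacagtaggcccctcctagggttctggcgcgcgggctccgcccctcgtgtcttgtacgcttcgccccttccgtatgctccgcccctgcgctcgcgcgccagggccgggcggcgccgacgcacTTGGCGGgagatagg
Rbl2: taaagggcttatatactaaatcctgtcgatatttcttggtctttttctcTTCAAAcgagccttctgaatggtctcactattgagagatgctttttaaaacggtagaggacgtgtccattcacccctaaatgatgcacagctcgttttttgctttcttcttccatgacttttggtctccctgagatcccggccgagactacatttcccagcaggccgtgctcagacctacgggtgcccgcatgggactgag
Rbbp4: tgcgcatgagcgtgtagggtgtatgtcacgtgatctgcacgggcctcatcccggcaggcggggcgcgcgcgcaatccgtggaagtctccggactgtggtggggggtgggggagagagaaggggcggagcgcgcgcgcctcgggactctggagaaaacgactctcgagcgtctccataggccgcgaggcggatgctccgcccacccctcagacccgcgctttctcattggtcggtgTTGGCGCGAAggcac
The Rbl1 stretch is chr2:157204535-157204784 on the minus strand, the Mybl2 stretch chr2:163054385-163054634 on the plus strand, the Rbl2 stretch chr8:91069807-91070056 on the plus strand and the Rbbp4 stretch chr4:129335371-129335620 on the minus strand.

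An E2F core began 17 bases before the start in Rbl1 and 15 bases before it in Mybl2. Rbbp4, whose signal hardly differed, held overlapping cores on both strands beginning 15 and 12 bases before the start. Windows of the same design that reach 50 bases past the start held an E2F core in 6 of the 7 members, against 17.8% of all 32851 windows. Besides those shown, the matches were in Lin52, 26 bases before the start, in Lin37, 17 bases after it, and in the second Lin54 window, 154 bases before it. The CHR letters were found in 3 members, Rbl2, Lin37 and Lin54, against 17.9% of all windows. The member counts are per gene, so both Lin54 windows count together, whereas the shares of all windows are per window. Matches thus occurred in members that were higher in p27delta51 and in members that were not, and a match is a run of letters, not a measured binding site.

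The 3 pocket proteins differed from one another. Rb1, the retinoblastoma protein gene that mainly restrains activator E2Fs, read 269 in p27delta51 MEFs and 310.3 in wild type MEFs, a log2 difference of -0.20. The second Rb1 probe set was below the floor on both arrays, at 1.6 and 11.2, and gives no measured difference. Rb1 was therefore close to equal on the 2 arrays, and the authors' deposited table gave a no-change call and a ratio of -0.3 (log2).

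Rbl1 encodes p107, a pocket protein whose own gene is a known E2F target and which accumulates in cycling cells. Its main probe set read 201 in p27delta51 and 99.8 in wild type cells, 2.02-fold higher, and the authors' deposited table gave an increase call and a ratio of 0.9 (log2). A dimmer Rbl1 probe set read 23.1 in p27delta51 and 10.3 in wild type cells, the second below the floor, so it was at least 1.96-fold higher. The remaining 2 Rbl1 probe sets were below the floor on both arrays. The main value sits on the 2-fold line: its log2 difference was 1.01 as deposited and 0.94, 0.93 and 0.90 with median centring, quantile normalization and loess.

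Rbl2 encodes p130, the pocket protein that prevails in quiescent cells and is the usual pocket subunit of DREAM. Both of its probe sets were bright and both were higher in p27delta51. The first gave 349 in p27delta51 and 207.7 in wild type cells, 1.68-fold higher, and the second 202 and 111.5, 1.81-fold higher. The SD between their log2 differences, 0.75 and 0.86, was 0.076, so the probe sets differed from each other far less than either differed between arrays. The authors' deposited table gave a log2 ratio of 0.6 and an increase call for each.

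Of the 5 MuvB core genes, Lin9 and Lin54 were higher in p27delta51 and Lin37, Lin52 and Rbbp4 were not distinguishable from equal. LIN9 is a structural subunit needed for the activating form of the complex. Its main probe set read 72.6 in p27delta51 and 29.5 in wild type cells, 2.46-fold higher, a log2 difference of 1.30 that exceeded those of 93.1% of kept genes. A second Lin9 probe set read 32.1 in p27delta51 and 11.6, below the floor, in wild type cells, at least 2.72-fold higher, although the authors' deposited table called it unchanged at a ratio of 0.5 (log2). Both wild type signals were within 3 times of the floor, so the size of the Lin9 difference is approximate.

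LIN54 is the subunit that contacts DNA at the CHR. Lin54 gave 138 in p27delta51 and 73.0 in wild type cells, 1.89-fold higher, and the authors' deposited table gave an increase call and a ratio of 0.7 (log2). Its other probe set was below the floor on both arrays. Lin37, which encodes a subunit needed for repression by DREAM, had 1 probe set, at 176 in p27delta51 and 169 in wild type cells, and the sign of its log2 difference of 0.055 turned negative with median centring, quantile normalization and loess.

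LIN52 bridges the pocket protein to MuvB, and its phosphorylation by DYRK1A is known to favour DREAM assembly. Lin52 was barely above background, at 22.7 in p27delta51 and 24.6 in wild type cells, which are 1.53 and 2.08 times the floors, and its second probe set was below the floor on both arrays. The log2 difference was -0.12 in the value table and 0.3 in the authors' deposited table, so no direction can be given for Lin52. Rbbp4 encodes a histone-binding protein shared with other chromatin complexes. Its 4 probe sets gave 3012.5, 658, 300.0 and 23.1 in p27delta51 and 2656.3, 608, 295.9 and 30.4 in wild type cells. Only the dimmest was lower in p27delta51, and the log2 differences ran between -0.40 and 0.18 with no-change calls for all 4. The brightest Rbbp4 probe set carries the suffix x, which Affymetrix gives to probe sets with probes that can also match other sequences.

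The partners that take the place of the pocket protein in cycling cells were both higher in p27delta51. Mybl2 encodes B-MYB, which is itself under DREAM repression in quiescence. Its main probe set read 70.5 in p27delta51 and 31.4 in wild type cells, 2.25-fold higher, and the authors' deposited table gave an increase call and a ratio of 1.2 (log2). A dimmer Mybl2 probe set read 18.8 in p27delta51 and 17.3 in wild type cells, close to both floors, with a no-change call. With the mean of both probe sets the log2 difference was 0.64 in place of 1.17, so the 2-fold difference of Mybl2 rests on 1 probe set whose wild type signal was 2.66 times the floor.

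Foxm1 encodes a forkhead factor that activates mitotic genes together with MuvB. Its 3 bright probe sets gave 137.9, 104.5 and 104.1 in p27delta51 and 107.3, 52.0 and 50.4 in wild type cells. All 3 were thus higher in p27delta51, by 1.29-fold, 2.01-fold and 2.07-fold, and all 3 had increase calls in the authors' deposited table. The brightest, which by rule stands for the gene, gave the smallest difference, a log2 value of 0.36, and the mean over the 3 was 0.81, with an SD of 0.38. The remaining Foxm1 probe set was below the floor on both arrays. Foxm1 lies on chromosome 6, 6.54 Mb from Cdkn1b, so a window of 1 Mb around Foxm1 does not reach Cdkn1b. The 11 kept genes within that window had a median log2 difference of 0.18. Of them 1 was higher and 3 were lower by 2-fold or more, against 10.8% and 8.77% of all kept genes.

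**Figure D2:**
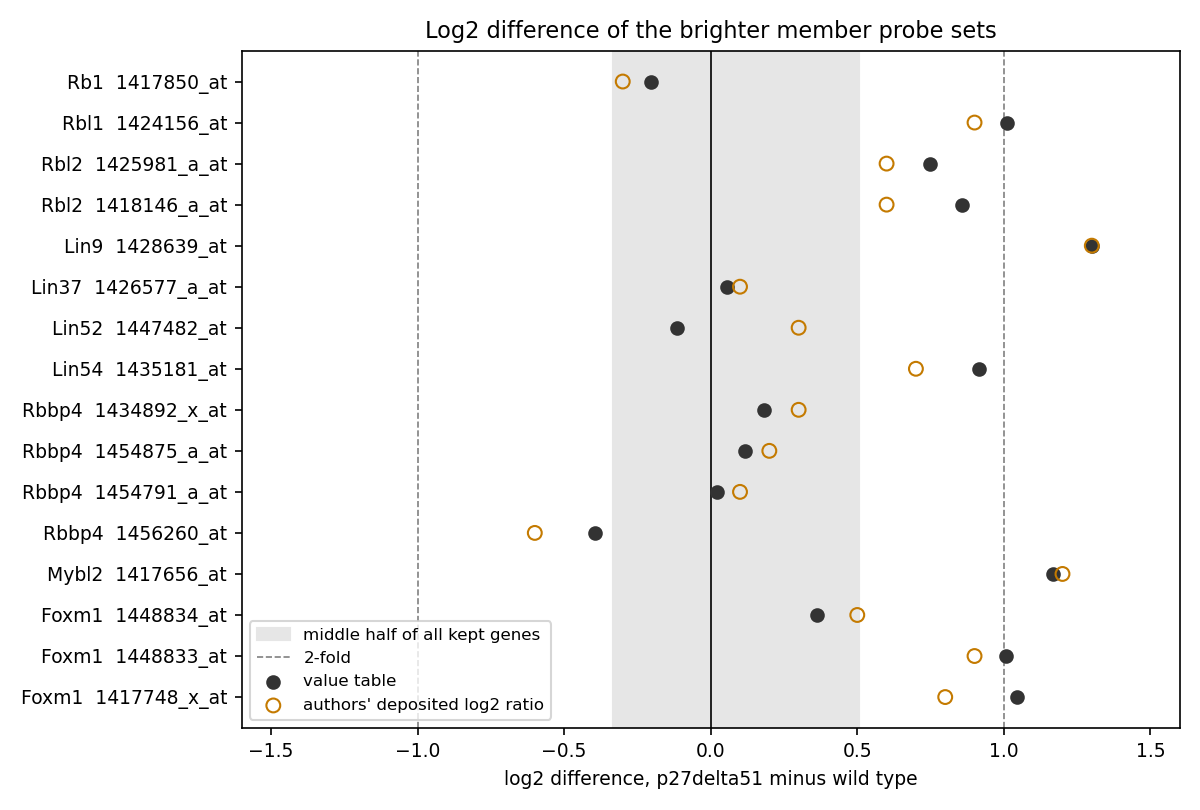
Log2 difference of p27delta51 minus wild type for the 16 brighter member probe sets, from the value table (filled) and from the authors' deposited log2 ratio (open), with 2-fold lines and a shaded band for the interquartile range of all kept genes, -0.33 to 0.51. The main probe sets of Rbl1, Lin9 and Mybl2 and 2 of the 3 Foxm1 probe sets reach the upper 2-fold line in the value table, and the Rb1, Lin37, Lin52 and 3 brighter Rbbp4 values lie inside the band.

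The E2F and DP partners within DREAM differed by less than 2-fold between the arrays. E2f4, Tfdp1, Tfdp2 and E2f5, which encode them, had 0 of 4 members at least 2-fold apart and a median log2 difference of 0.23. Over all kept genes 10.8% were higher and 8.77% lower by 2-fold or more. E2f4, the main repressive E2F of quiescent cells, gave 97.4 in p27delta51 and 93.0 in wild type cells. Tfdp1 gave 1006 in p27delta51 and 779 in wild type cells, a log2 difference of 0.37 with an increase call in the authors' deposited table. E2f5 had a log2 difference of 0.39 with a no-change call. Among activator E2Fs, the brightest, E2f3, gave 220.3 in p27delta51 and 211.5 in wild type cells, with a no-change call in the authors' deposited table. E2f1 gave 169 and 105.8 in the same order, with an increase call. E2f2, which missed the brightness limit, gave 26.1 and 2.3, at least 2.21-fold higher in p27delta51, although its call was also no change. E2f8 and E2f6, repressors that do not bind pocket proteins, were 3.96-fold and 2.06-fold higher in p27delta51, at 128 against 32.4 and 331 against 160.3, while E2f7 gave 198 against 162. The wild type signal of E2f8 was only 2.75 times the floor. The median log2 difference of E2f6, E2f7 and E2f8 was 1.05, but 0.29 where each gene's probe sets were averaged.

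The kinases and cyclins that act on pocket proteins or on LIN52 split. Of 10 genes, 1 was higher and 3 were lower in p27delta51 by 2-fold or more, against 10.8% and 8.77% of all kept genes. Their median log2 difference was -0.0014. That median depended on the probe set rule and was -0.78 where each gene's probe sets were averaged. Cdk6, a partner of D-type cyclins, gave 108 in p27delta51 and 539.9 in wild type cells, 4.99-fold lower. Ccnd2, which encodes cyclin D2, read 1317 in p27delta51 MEFs and 4114 in wild type MEFs, 3.12-fold lower, with all 7 of its bright probe sets lower. Ccne1 and Ccne2, the cyclin E genes, went opposite ways, Ccne1 at 62.4 against 212.4 and Ccne2 at 137 against 56.9. The Ccne1 probe set carries the suffix x. The authors' deposited table gave it a decrease call but a ratio of -0.9 (log2), short of 2-fold. Each of the 2 bright Ccne1 probe sets was lower in p27delta51. Ccnd1 gave 1081 against 738, Cdk4 2889.6 against 2005, and Dyrk1a, the LIN52 kinase gene, 214 against 195 on the brightest of its 3 probe sets, of which 1 was higher in p27delta51.

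The CDK inhibitor genes act upstream by keeping pocket proteins active. On the brightest probe set of each, 3 of 7 were lower in p27delta51 by 2-fold or more and 0 higher by as much. Over all kept genes 8.77% were lower and 10.8% higher by 2-fold or more, which also stands beside the list counts that follow. The 7 include Cdkn1b, 1.87-fold higher in p27delta51 on that probe set and at least 4.19-fold lower on its other. Cdkn2b, Cdkn2a and Cdkn1c were below the floor in p27delta51, at 3.2, 7.0 and 1.6, against 439, 172 and 62.2 in wild type cells, at least 29.7-fold, 11.6-fold and 4.20-fold lower. Cdkn2c gave 979 in p27delta51 and 508.5 in wild type cells. Cdkn1a, which encodes p21, read 791 in p27delta51 MEFs and 1479.9 in wild type MEFs on its brightest probe set, while its other bright probe set was higher in p27delta51. Corepressor and histone-binding partners had 0 of 8 measured genes at least 2-fold apart and a median of 0.17, with Rbbp7, the close relative of Rbbp4, at 4530.6 against 3368 and Hdac1 at 1107 against 989. Related MYB and FOX genes had 1 of 6 past 2-fold, Foxo1, higher in p27delta51 at 292 against 139. Mybl1 gave 37.3 against 53.8 in p27delta51 and wild type cells, and Myb was close to or below the floor on both arrays.

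Genes that DREAM represses in quiescence were higher in p27delta51. Of 26 kept early targets, which act in DNA replication, 17 were higher by 2-fold or more and 0 lower by as much. Over all kept genes the shares were 10.8% and 8.77%. The median log2 difference of the early targets was 1.15. The furthest apart were Cdt1, a replication licensing gene, at 1377 against 271, Prim1, a primase subunit gene, at 791 against 219, and Pola1, a polymerase alpha gene, at 256 against 71.7. The least higher were Rrm2 at 938 against 671 and Cdc6 at 118 against 80.7, and Cdc25a, a phosphatase gene, gave 179 against 189. All 37 kept late targets, which MuvB activates with B-MYB and FOXM1, were higher in p27delta51. Their median was 1.25, and 30 reached 2-fold, against the same 10.8% of all kept genes. Cdc25b, a phosphatase gene, Cenpf, a kinetochore gene, and Kif23, a cytokinesis motor gene, were 4.93-fold, 4.87-fold and 4.86-fold higher, whereas Nuf2, Hmmr and Plk1 were 1.29-fold, 1.53-fold and 1.62-fold higher. The authors' deposited table gave an increase or marginal increase call to 23 of the 26 early and all 37 late targets. The share of such calls over all kept genes was not computed. These lists were drawn up with results of these arrays known, so their direction is not independent evidence, and E2f1 and Ccne2 stand on the early list and on another.

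**Figure D3:**
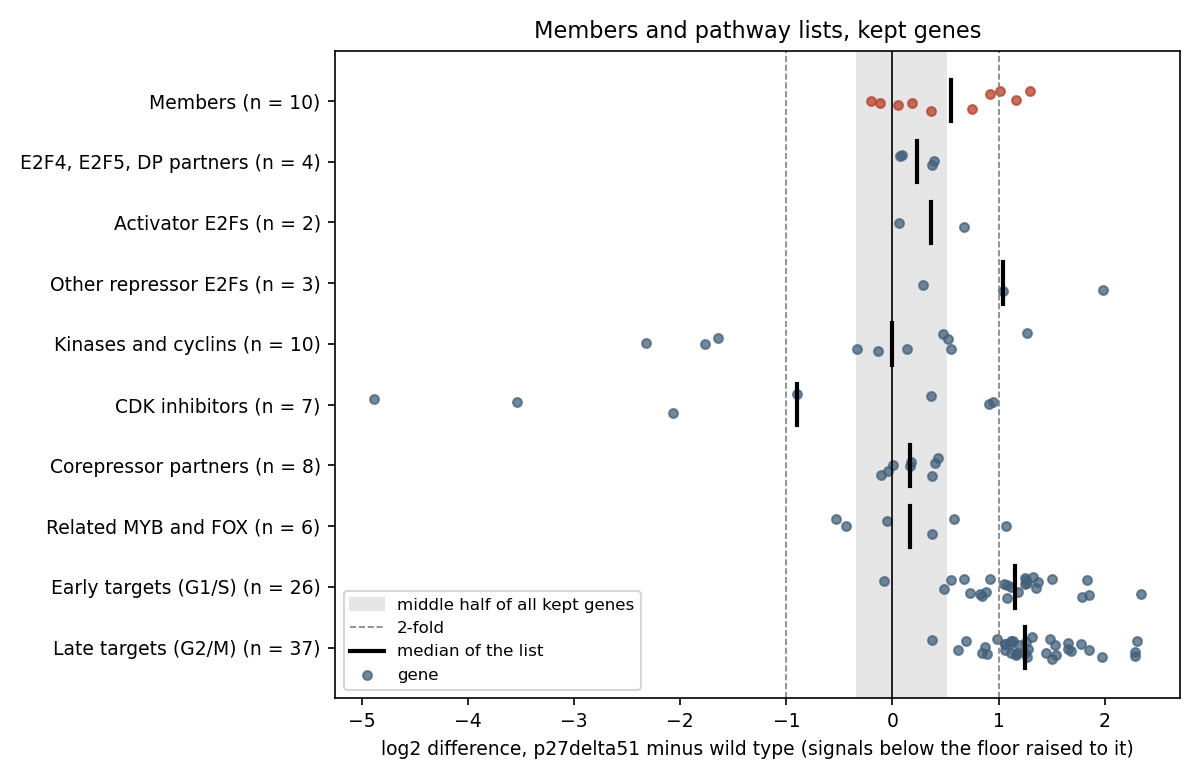
Log2 difference of p27delta51 minus wild type, signals under the floor having been set to it, for each kept gene (points) of the members and of 9 pathway lists, with the list median as a bar, 2-fold lines and a band for the interquartile range of all kept genes. The members spread from -0.20 to 1.30, the CDK inhibitors and the kinases and cyclins have points far to the left, and the medians of the early and late targets, 1.15 and 1.25, lie past the upper 2-fold line.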

How the data were processed

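RNA of 1 p27delta51 and 1 wild type MEF culture was read on Affymetrix arrays. Per the submitters' processing notes, the tools were RMA and affy, with no version given. The deposited value table holds linear signal intensities with 1 decimal, which is not the log2 scale of RMA; their program was not given in the sources used. The authors' log2 ratio (p27delta51 over wild type), call and change p-value come from another deposited table, per the file headers. The p-value is low for increases, high for decreases, and compares arrays, not genotypes. Across probe sets, which are no replicates, this ratio and the log2 difference of the value table had a Pearson r of 0.943.

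Names come from the platform annotation, and symbols were brought up to date through the gene identifiers of the RefSeq GRCm38.p6 table. Of 45101 probe sets, 34945 carried 1 symbol (34741 in the table), 932 several, 9160 none here, and 64 were controls. Each gene was represented by its probe set with the highest mean signal, and 11159 genes at or above 22.2 were kept. A signal of 0 was set to 0.1 before log2. A dimmer signal at or under its array's floor was replaced by that floor for the fold, which is then a lower bound. Python 3.11.15, pandas 2.3.3 and statsmodels 0.14.6 (lowess, span 0.3) were used, and the steps were tested on simulated data. No sample column went unused.

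The members and lists were chosen with earlier results of these data known. All probe sets of the members are reported. Genes of pathway lists with up to 10 genes could all be named, and of the 2 target lists the 3 largest and 3 smallest differences. Dcn, Thy1, Col5a1, Pdgfra, Eif2s3y and Xist were chosen after their values were seen. Some listed genes are not analysed here. Alternatives were other scalings, offsets, probe set rules, filters and fold thresholds, and the mean over bright probe sets, which was added after seeing the data. The number of arrays limits the precision. Without replicates, a value was held to the median SD between probe sets and a count to a factor of 1.5.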

Additional observations from a re-analysis of the deposited data

Results flagged for a closer look

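A probe set annotated to 3 genes, of which Foxm1 is 1, was left out of the comparison and was picked out because it carries signal above wild type in data not used there. It gave 266 in p27delta51 and 130.4 in wild type cells, a log2 difference of 1.03, and the authors' deposited table gave an increase call and a ratio of 0.9 (log2). Which of the 3 genes it reads cannot be told apart.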

How the results depend on the processing

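No paired analysis was possible because each genotype has 1 array. For the members and the early and late targets, 111 counts and medians were recomputed. Of these, 99 stayed within the limits given for spread and 12 moved. A reversal of sign was recorded only for medians past 2-fold, those of the early and late targets, and 0 reversed. The 3 members at least 2-fold higher became 2 with median centring, quantile normalization, loess and the authors' deposited ratio, 1 with the mean of all probe sets, 0 with log2 of the signal plus 32, with the upper-quartile filter and at 3-fold, and 5 at 1.5-fold. The 0 members at least 2-fold lower became 1 with the mean of all probe sets, which is Rb1 at -1.51, through a probe set below the floor on both arrays. The members' median of 0.56 was 0.80 with the mean of bright probe sets and 0.12 with the upper-quartile filter. Early targets at least 2-fold higher numbered 11 with log2 of the signal plus 32 and 4 at 3-fold, against 17. With no filter 1 counted as at least 2-fold lower. It is Tyms, at 7.2 in p27delta51, below the floor, and 15.1 in wild type cells, so its bound was only 1.02-fold. Late targets numbered 9 at 3-fold, against 30. Apart from the Rb1 and Tyms counts and the CDK inhibitor median of -2.18 given below, the cause of each was not tested. A stricter fold or filter and an offset do lower a count by construction. Over 9 settings each, Rb1, Rbl1, Rbl2, Lin9, Lin54, Mybl2 and Foxm1 kept their sign, while Lin37 turned in 3, Lin52 in 2 and Rbbp4 in 2. The median of the kinases and cyclins was -0.78 with the mean of all probe sets. That of the CDK inhibitors, -0.90, was -2.18 with the mean of all or of bright probe sets and 0.36 with the upper-quartile filter. The value of -2.18 is that of Cdkn1b itself, whose probe sets had log2 differences of 0.91 and -5.28. The second comes from a signal of 1.6 in p27delta51, below the floor. Log2 of the signal plus 32 gave 0.77 for Lin9 and 0.69 for Mybl2. Over all kept genes, no filter gave 2811 higher and 2587 lower at 2-fold, a 1.5-fold threshold 2426 and 1774, a 3-fold threshold 533 and 581, the upper-quartile filter 559 and 461, and log2 of the signal plus 32 gave 752 higher. Lin9, Mybl2 and Lin52 are limited by signals near the floor.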

Other observations

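A probe set annotated to Lin52 and 1 other gene read 81.3 in p27delta51 MEFs and 106 in wild type MEFs, a log2 difference of -0.38, and was called unchanged in the authors' deposited table.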
